A study of Mus musculus with 6 samples.

Results

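The GTPases of immunity-associated proteins (GIMAPs) are a family of small GTP-binding proteins found mainly in lymphocytes. The 8 members Gimap1, Gimap3, Gimap4, Gimap5, Gimap6, Gimap7, Gimap8 and Gimap9 were taken by gene symbol, and all 8 were measured, each by a single probe set, among 19752 genes. They were compared in regulatory T (Treg) cells of 2 tissues, a Foxp3-expressing kind of CD4 T cell that holds immune responses in check. The tissues were pancreas, in 3 arrays, and spleen, in 3 arrays. Both groups came from 10-week-old prediabetic female NOD mice, a strain that develops autoimmune diabetes spontaneously, of the background labelled NOD NRB_SFB+, with green fluorescent protein coupled to Foxp3. Cells were sorted from each tissue as DAPI- CD45+ TCRb+ CD4+ GFP+ cells and sorted again into TRIzol, and their RNA was amplified for Affymetrix Mouse Gene 1.0 ST arrays. Whether each array held cells of separate mice or of a pool is not stated in the labels, so p-values cover the spread between these samples alone, and that spread may be technical.

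GIMAP proteins bind GTP through a shared domain, and several sit on intracellular membranes. As background, the family is known for keeping mature lymphocytes alive and for tuning their death. Loss of Gimap5 gives a shortage of T cells in the BB rat, a model of spontaneous autoimmune diabetes. Loss of Gimap5 or of Gimap1 in mice depletes lymphocytes. In the RefSeq gene table of GRCm38.p6, the 8 genes stand side by side on chromosome 6 in the order Gimap8, Gimap9, Gimap4, Gimap6, Gimap7, Gimap1, Gimap5 and Gimap3, with 0 other protein-coding genes between them.

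All 8 GIMAP genes were clearly measured in Treg cells of both tissues. Each was above background on all 6 arrays, where background was an intensity of 63.8, under which 95% of 1178 olfactory or vomeronasal receptor genes had their mean. Differences between the tissues were small. Of the 8 genes, 0 passed the test at an adjusted p under 0.05 (limma, with p-values adjusted over all genes by Benjamini-Hochberg), and 1, Gimap7, had an unadjusted p under 0.05. Over all genes, 0.678% passed at the adjusted threshold (0.547% higher and 0.132% lower in pancreas), and 6.84% at the unadjusted threshold, so 0 or 1 of 8 is near what the whole table gives. Gimap7 had a higher mean in pancreatic Treg cells, by 0.56 on the log2 scale, which did not pass over all genes. Gimap4 and Gimap6 were within 0.1 of 0, and the other 5 had a lower mean in pancreas, by log2 fold changes of -0.35 to -0.24. The median log2 fold change was -0.25 over the 8 members and -0.00091 over all genes, or -0.04 over genes with a mean above background. With arrays scaled to a common width, the median of the members was -0.10.

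**Figure D1:**
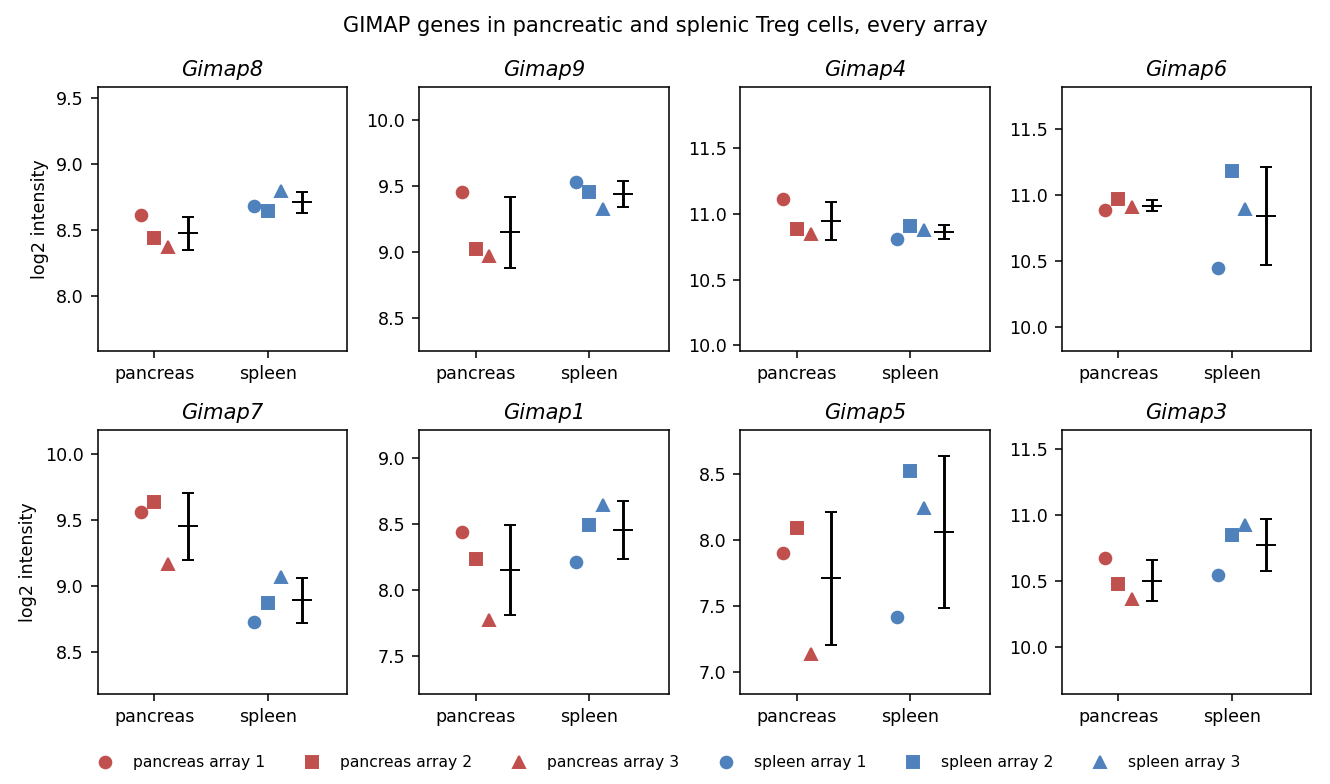
Log2 intensity of each GIMAP gene (vertical axis, a window of equal height in each panel) on the 3 pancreas arrays (red, left) and the 3 spleen arrays (blue, right), in chromosomal order. Symbols give the array number, and black bars the mean and SD of 3 arrays. On these deposited values the tissues do not overlap for Gimap7, which is higher in pancreas, and Gimap8, which is lower. Of all genes, 4.57% separate in the first direction and 5.81% in the second. Both members overlap with arrays centred on their medians. Gimap5 has the widest spread within both tissues.

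Gimap7 had the largest difference of the family. GIMAP7 is known from work on the human protein to pair with other GIMAPs through its GTP-binding domain. Its log2 intensity was 9.56, 9.64 and 9.17 on pancreas arrays 1 to 3, against 8.73, 8.88 and 9.07 on spleen arrays 1 to 3. The lowest pancreas value, on array 3, was just above the highest spleen value, also on array 3. The means were 9.45 ± 0.25 in pancreas and 8.89 ± 0.17 in spleen (SD, n = 3 each), a 1.48-fold difference (log2 fold change 0.56 ± 0.18 SE, 95% interval 0.15 to 0.97). By limma its unadjusted p was 0.0118 and its adjusted p 0.383, so it did not pass over all genes, where it was number 605 by p-value. The 3 pancreas arrays all lay above the 3 spleen arrays for 4.57% of all genes, and for 1 of the 8 members. The tissues were also separate by rank within each array, which does not depend on the array's centre or width. By rank, Gimap1 and Gimap3 were separate too, lower in pancreas, and Gimap8 overlapped. How many of all genes separate by rank was not computed, so the ranks are a description only. The share of genes below Gimap7 on the same array was 92.3%, 93.6% and 92.2% in pancreas, against 87.0%, 86.9% and 88.3% in spleen. With each array centred on its median the tissues overlapped, with pancreas array 3 at 9.11 and spleen array 3 at 9.13. With arrays quantile-normalized against each other, the log2 fold change was 0.62 (adjusted p = 0.0534), and over all alternative settings it stayed above 0, from 0.47 to 0.74. Of the alternatives, it passed the test only under the 2 array weightings, where pancreas array 2 and spleen array 2 carried most of the weight (adjusted p = 0.00407 with gene-by-gene weights).

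Set against the mean of the other 7 members on the same array, a comparison chosen after its values were seen and therefore given without a test, Gimap7 differed by -0.02, 0.19 and -0.03 on the log2 scale on pancreas arrays 1 to 3. On spleen arrays 1 to 3 the same difference was -0.65, -0.85 and -0.60. The pancreas values all lay above the spleen values, with means of 0.05 ± 0.12 in pancreas and -0.70 ± 0.13 in spleen (SD, n = 3 each). Only the change of this difference between arrays can be read, since levels of different probe sets are not on 1 scale.

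Gimap8 was the other member whose tissues did not overlap on the deposited values, in the opposite direction. It is the largest family member, with several GTP-binding domains in tandem. Its log2 intensity was 8.61, 8.44 and 8.37 on pancreas arrays 1 to 3, against 8.68, 8.65 and 8.80 on spleen arrays 1 to 3. The highest pancreas value was 8.61 and the lowest spleen value 8.65, so the gap was narrow. The log2 fold change was -0.24 ± 0.16 SE (95% interval -0.59 to 0.12, limma adjusted p = 1.00). Of all genes, 5.81% had all 3 pancreas arrays below all 3 spleen arrays, beside 1 of the 8 members. The separation was lost under all 3 scalings. With arrays centred on their medians, pancreas array 1 (8.68) rose above spleen arrays 1 and 2 (8.65 and 8.63). With arrays scaled to a common width or quantile-normalized, pancreas array 3 (8.78 and 8.66) was above the lowest spleen array (8.56 and 8.59).

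The promoters of these 2 genes are shown because they were the members whose arrays separated by tissue on the deposited values, in opposite directions. Each runs from 250 bases before to 50 bases after a RefSeq start site (GRCm38.p6). The Gimap7 promoter is chr6:48718371-48718670 on the plus strand, and that of Gimap8, at the downstream of its listed start sites, is chr6:48647111-48647410 on the plus strand. Capitals mark matches to the 6 motifs searched on both strands.
Gimap7: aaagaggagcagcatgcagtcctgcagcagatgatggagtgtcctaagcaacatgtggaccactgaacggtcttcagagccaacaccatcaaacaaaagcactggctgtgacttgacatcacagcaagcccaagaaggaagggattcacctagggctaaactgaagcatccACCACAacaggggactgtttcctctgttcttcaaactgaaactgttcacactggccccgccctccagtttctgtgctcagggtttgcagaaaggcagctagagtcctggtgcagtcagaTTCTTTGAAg
Gimap8: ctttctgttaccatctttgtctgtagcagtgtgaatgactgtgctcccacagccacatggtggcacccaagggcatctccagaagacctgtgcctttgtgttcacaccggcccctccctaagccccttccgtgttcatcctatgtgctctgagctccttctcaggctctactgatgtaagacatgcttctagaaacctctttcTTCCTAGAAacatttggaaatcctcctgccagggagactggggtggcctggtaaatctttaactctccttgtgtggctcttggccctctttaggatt
The RUNX letters TGTGGT, lying on the minus strand and so reading ACCACA on the plus strand, were in the Gimap7, Gimap4 and Gimap1 promoters, 3 of 9 listed. They were in 16.8% of all 32851 promoters of this length. The STAT letters TTCNNNGAA were in 4 of 9, those of Gimap7, Gimap8, Gimap6 and Gimap3, and in 8.3% of all promoters. The forkhead letters GTAAACA were in that of Gimap3 (3.65% of all promoters). The ETS letters CCGGAAG (8.86% of all promoters), the TCF/LEF letters CTTTGAT (3.73%) and the E-box letters CAGCTG (16.3%) were in 0 of 9. No motif match was shared by all members, and a match describes the letters in this window only.

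The neighbouring members Gimap1, Gimap5 and Gimap3 had lower means in pancreas, and their arrays overlapped on the deposited values. Gimap1, which mature T and B cells of mice need for survival, was at 8.44, 8.24 and 7.77 on pancreas arrays 1 to 3, against 8.21, 8.49 and 8.65 on spleen arrays 1 to 3. Pancreas array 3 was the low one, and pancreas arrays 1 and 2 lay within the spleen range. The log2 fold change was -0.30 ± 0.21 SE (95% interval -0.76 to 0.16, limma adjusted p = 1.00). With arrays scaled to a common width or quantile-normalized, all 3 pancreas arrays lay below the 3 spleen arrays. The log2 fold changes were then -0.24 and -0.25 (limma adjusted p = 0.827 and 0.586). The share of all genes that separate under these scalings was not computed.

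Gimap5, the family member lost in the BB rat, was at 7.90, 8.09 and 7.14 on pancreas arrays 1 to 3, against 7.41, 8.53 and 8.24 on spleen arrays 1 to 3. It varied most within tissues, with an SD of 0.50 in pancreas and 0.58 in spleen. The low values were on pancreas array 3 and spleen array 1, so both tissues held high and low arrays. Its log2 fold change of -0.35 ± 0.31 SE had the widest 95% interval of the family, from -1.04 to 0.34 (limma adjusted p = 1.00). Without pancreas array 3 the log2 fold change was -0.06, and without spleen array 1 it was -0.67.

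Gimap3, the close relative of Gimap5 that acts with it in T cell survival in mice, was at 10.67, 10.47 and 10.36 on pancreas arrays 1 to 3, against 10.55, 10.85 and 10.92 on spleen arrays 1 to 3. Only pancreas array 1 reached into the spleen range. The log2 fold change was -0.27 ± 0.17 SE (95% interval -0.66 to 0.12, limma adjusted p = 1.00). With arrays quantile-normalized, all 3 pancreas arrays lay below the 3 spleen arrays (log2 fold change -0.26, limma adjusted p = 0.539). With arrays scaled to a common width the tissues overlapped, at a log2 fold change of -0.07. The RefSeq table lists Gimap5 as an older name of Gimap3, so the probe sets were matched by gene ID. Probe sets of near relatives may share signal, and how far they do was not tested.

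**Figure D2:**
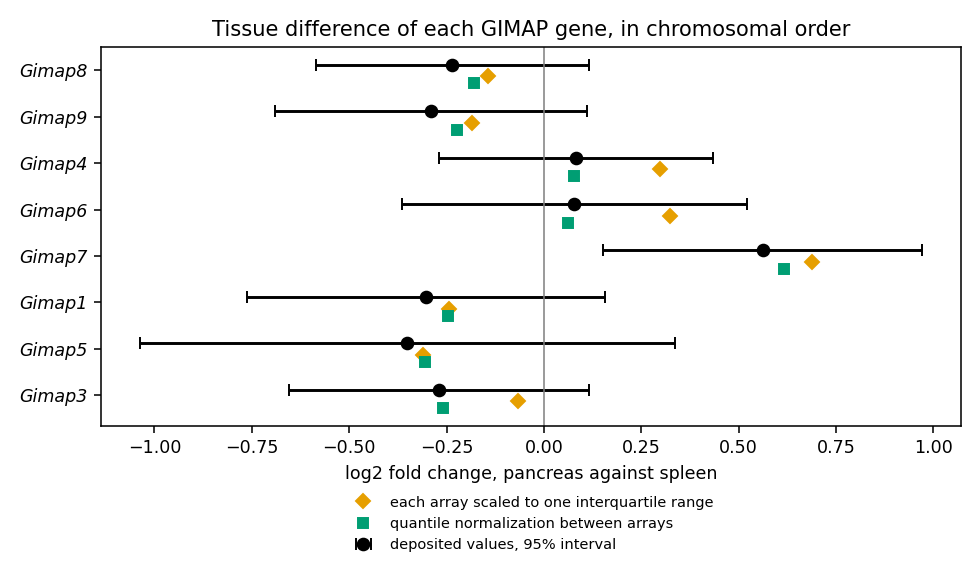
Log2 fold change of each GIMAP gene, pancreas against spleen (horizontal axis), in chromosomal order from top to bottom. Black points with bars are the limma estimate and its 95% interval on the deposited values, and diamonds and squares the estimate under other scalings. The interval lies above 0 for Gimap7 and holds 0 for the other 7 members.

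Gimap9, the neighbour of Gimap8 in the cluster, was at 9.45, 9.02 and 8.97 on pancreas arrays 1 to 3, against 9.53, 9.46 and 9.33 on spleen arrays 1 to 3. Pancreas arrays 2 and 3 lay below all spleen arrays and pancreas array 1 among them (log2 fold change -0.29 ± 0.18 SE, 95% interval -0.69 to 0.11, limma adjusted p = 1.00).

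Gimap4 and Gimap6 had the smallest differences. Gimap4, which speeds the death of T cells in mice, was at 11.11, 10.88 and 10.85 on pancreas arrays 1 to 3, against 10.81, 10.91 and 10.88 on spleen arrays 1 to 3. Only pancreas array 1 was above the spleen range (log2 fold change 0.08 ± 0.16 SE, 95% interval -0.27 to 0.44, limma adjusted p = 1.00). Gimap6, which binds the autophagy protein Gabarapl2, was at 10.89, 10.97 and 10.91 on pancreas arrays 1 to 3, against 10.45, 11.19 and 10.89 on spleen arrays 1 to 3. The pancreas arrays were close together, with an SD of 0.04, and lay inside the wide spleen range, whose SD was 0.37. Its log2 fold change of 0.08 ± 0.20 SE (95% interval -0.36 to 0.52, limma adjusted p = 1.00) turned to -0.12 without spleen array 1. With arrays scaled to a common width, Gimap4 was at 0.30 and Gimap6 at 0.32, neither past the test. Pancreas array 3 was then the highest of the 6 arrays for both. It was at 11.86 for Gimap4, against 10.62 and 10.83 on pancreas arrays 1 and 2. For Gimap6 it was at 11.95, against 10.43 and 10.91.

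Of the 8 intervals, 7 held 0 and 7 lay within a 2-fold difference either way, the exception to the second being Gimap5. A p that misses the threshold does not show that the levels of a member were the same in both tissues.

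The members also varied between arrays of the same tissue. On pancreas array 1, all 8 members were above their own mean over the 6 arrays, against 1 on pancreas array 3. On spleen array 2, 7 members were above it, against 2 on spleen array 1. The mean log2 value over the family was 9.58, 9.47 and 9.19 on pancreas arrays 1 to 3, against 9.30, 9.62 and 9.60 on spleen arrays 1 to 3. The 2 low arrays, pancreas array 3 and spleen array 1, were also those with the narrowest spread of log2 values over all genes. The interquartile range over all genes was 2.96, 2.63 and 2.10 on pancreas arrays 1 to 3, against 2.38, 2.69 and 2.90 on spleen arrays 1 to 3. The part of array width in the members' values was not tested beyond the scalings given here. Without these 2 arrays, a choice made after seeing the data, 0 of 8 members passed the test and the median log2 fold change of the family was -0.18.

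**Figure D3:**
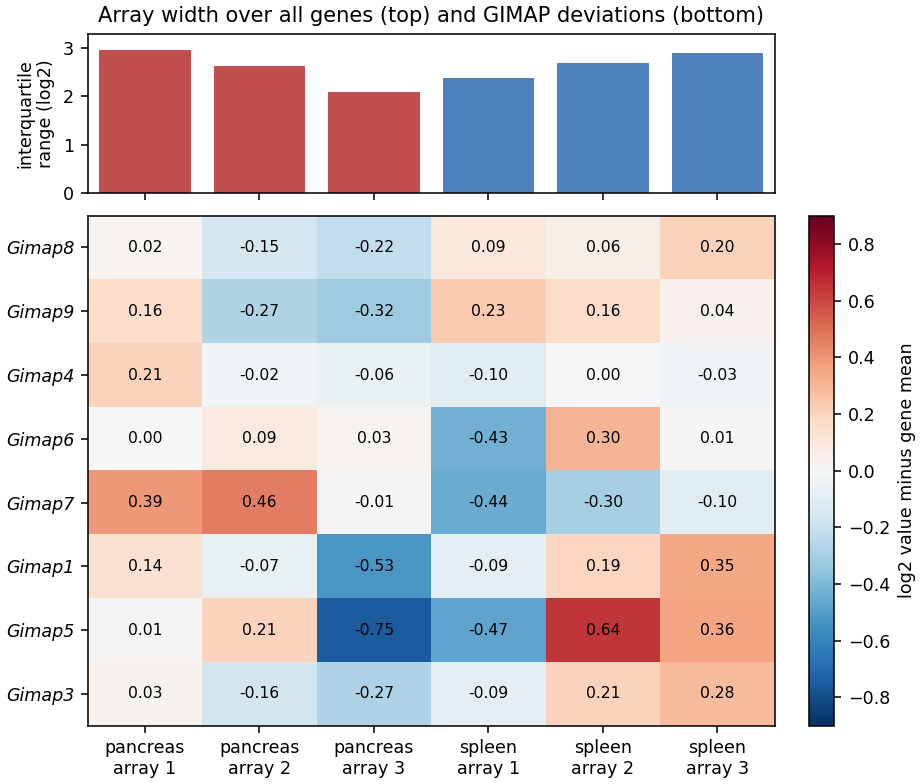
Top, interquartile range of the log2 values of all genes on each array. Bottom, log2 value of each GIMAP gene minus its mean over the 6 arrays, with pancreas arrays on the left. Pancreas array 3 and spleen array 1, the narrowest of their tissues, hold the lowest values of Gimap5, at -0.75 and -0.47, and the values of Gimap7 are highest on pancreas arrays 1 and 2, at 0.39 and 0.46.

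The likeness of each member to the mean of the other 7, as Pearson's r over the 6 arrays and as a description only, was 0.88 for Gimap1, 0.84 for Gimap5 and 0.79 for Gimap3. It was 0.51 for Gimap4, 0.51 for Gimap8, 0.40 for Gimap6 and 0.30 for Gimap9. For Gimap7 it was -0.06, but 0.81 with each tissue centred on its own mean. The width and centre of an array are shared by all genes on it and enter each of these values. Among 11203 other genes with a mean above background and an established name, the 5 most like the family mean over the 6 arrays were Bcor (r = 0.998), Atg2b (0.994), Vps26a (0.993), Immt (0.992) and Dennd1c (0.989). With tissues centred they were Pank4, Sipa1l1, Bcor, Gpm6b and Zfp367, each with r above 0.99. Bcor encodes a co-repressor of transcription and Atg2b a lipid transfer protein of autophagy. Bcor had a log2 fold change of -0.16 between tissues (limma adjusted p = 1.00). It was picked for its likeness to the family on these same arrays, so a similar tissue difference follows from the choice. How high r runs by chance among 11203 genes over 6 arrays was not tested.

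Genes beside the GIMAP cluster were examined to see whether the tissue differences ran on into the flanking region. Of the 10 protein-coding neighbours, 5 on each side, 0 passed the test. Tmem176b, the first gene beyond Gimap3 and one that encodes a membrane protein, was at 7.16, 7.32 and 7.66 on pancreas arrays 1 to 3, against 6.96, 6.84 and 6.66 on spleen arrays 1 to 3. Its arrays did not overlap, as for 4.57% of all genes in that direction. Its log2 fold change of 0.56 (limma adjusted p = 0.380) was about that of Gimap7. Within tissues the 2 genes differed, since Tmem176b was highest on pancreas array 3 and spleen array 1, where Gimap7 was lowest. Its relative and neighbour Tmem176a was at 0.26, and beyond Gimap8 the genes Lrrc61 and Repin1 were at -0.39 and 0.05, none past the test. The remaining neighbours ran from -0.24 to 0.17, and 3 of the 10 were below background on all 6 arrays. In chromosomal order, log2 fold changes were -0.24 and -0.29 for Gimap8 and Gimap9, then 0.08, 0.08 and 0.56 for Gimap4, Gimap6 and Gimap7. They were -0.30, -0.35 and -0.27 for Gimap1, Gimap5 and Gimap3, then 0.56 and 0.26 for Tmem176b and Tmem176a. None of these genes passed the test.

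Partners of the family and survival genes gave a single call. Of 20 measured genes of BCL-2 proteins, autophagy adaptors and the GSK3 and beta-catenin pathway, 0 rose and 1 fell, with a median log2 fold change of -0.04. The gene that fell was Bcl2, which encodes the survival protein that several GIMAPs are reported to bind. It was at 9.54, 8.95 and 8.73 on pancreas arrays 1 to 3, against 10.15, 10.11 and 10.37 on spleen arrays 1 to 3. All pancreas arrays were lower (log2 fold change -1.14, limma adjusted p = 0.0482). This call did not last in every fit with 1 array dropped. It was lost without pancreas array 2 (adjusted p = 0.224) or without spleen array 1, 2 or 3 (adjusted p = 0.107, 0.153 and 0.186). It was also lost after median centring of the arrays (adjusted p = 0.146), after scaling them to a common width (adjusted p = 0.0721), in a fit blocked on replicate number (adjusted p = 0.0546), and with values under background raised to it (adjusted p = 0.479). In all of these fits the log2 fold change stayed between -1.19 and -1.03. The call of Bcl2 held without pancreas array 1 or 3 (limma adjusted p = 0.0230 and 0.0301). It also held with quantile normalization (adjusted p = 0.0159) and in the remaining alternatives. Mcl1, another survival gene, was at -0.62 with arrays that did not overlap (adjusted p = 0.404). Of all genes, 5.81% separate in that direction.

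Regulators of lymphocyte quiescence, the resting state of naive and memory cells, mostly had lower means in pancreas. Of 18 measured, 15 had a lower mean and 0 passed the test, with a median of -0.34 and 7 at an unadjusted p under 0.05. Of all genes 50.2% had a lower mean in pancreas, 59.3% of those above background, and 6.84% had an unadjusted p under 0.05. The members with the smallest p were Bach2 (-1.02, adjusted p = 0.0951), Foxp1 (-0.74, adjusted p = 0.108) and Lef1 (-0.69, adjusted p = 0.116), all transcription factors. Bach2 passed under 6 of the 17 alternatives, among them quantile normalization (adjusted p = 0.0158). The list was chosen with earlier results of these data known and is not independent evidence of its direction.

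Other immune GTPases, of the interferon-inducible GBP, IRG and Mx families, showed no calls. Of 10 measured, 5 had a higher and 5 a lower mean in pancreas, with a median of 0.02. The largest difference was in Gbp3, a guanylate-binding protein gene (0.43, limma adjusted p = 0.669).

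**Figure D4:**
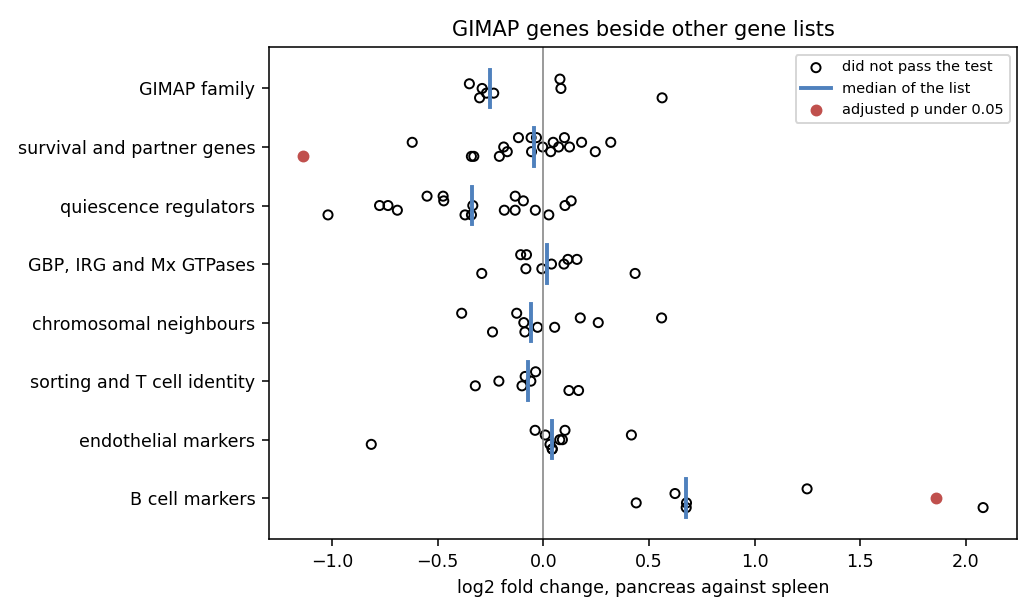
Log2 fold change, pancreas against spleen (horizontal axis), of every measured gene on 8 lists, with GIMAP genes on top. Each circle is 1 gene, filled where the adjusted p was under 0.05, and vertical bars are list medians. GIMAP genes lie between -0.35 and 0.56 with no filled circle, and B cell markers all lie above 0.

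The sorted population was checked on its defining genes. Foxp3, Cd4 and Ptprc, the gene of CD45, had log2 fold changes of -0.04, -0.09 and -0.21 (limma adjusted p = 1.00 for each). Of 8 genes of T cell identity and sorting that were measured, 0 passed and all were above background on all 6 arrays. GIMAP genes are also expressed by B cells, and some members by endothelial cells. Of 7 measured B cell markers, 1 rose, Cd79a (1.86, limma adjusted p = 0.0482, lost without pancreas array 1 or any 1 spleen array, with adjusted p up to 0.142), and all 7 had a higher mean in pancreas. The call of Cd79a was also lost with arrays centred on their medians (adjusted p = 0.128), scaled to a common width (adjusted p = 0.193) or quantile-normalized (adjusted p = 0.0821), and with values under background raised to it (adjusted p = 0.677). Its log2 fold change in these 4 settings was 1.54 to 1.94, and under the 2 array weightings it was 0.71 and 0.97. The call held in the remaining alternatives, among them without pancreas array 2 or 3 (limma adjusted p = 0.00940 and 0.0140). The summed intensity of the 7 B cell markers was 787 to 1711 on pancreas arrays, against 574 to 685 on spleen arrays. Cd79a was at 7.73, 6.80 and 8.36 on pancreas arrays 1 to 3, against 5.62, 6.27 and 5.43 on spleen arrays 1 to 3. The tissues did not overlap for Cd79a, as for 4.57% of all genes in that direction. Of 10 endothelial markers, 0 passed, and 8 had a higher mean in pancreas. Cdh5, Kdr, Tek, Tie1 and Emcn were below background on all 6 arrays. Pecam1, Egfl7 and Cldn5 were above it on all 6, Vwf on 5 and Esam on 2. The summed intensity of the 10 markers was 1008 to 1046 on pancreas arrays, against 1282 to 1363 on spleen arrays. This sum includes Pecam1, which T cells also express, at -0.81 (limma adjusted p = 0.112). Egfl7 and Cldn5 were at 0.09 and 0.03. Of 8 acinar markers 7 rose, with a summed intensity of 8354 to 18181 on pancreas arrays, against 694 to 1941 on spleen arrays. Of 8 macrophage and dendritic cell markers, 1 rose, the lysozyme gene Lyz2 (1.90, adjusted p = 0.00134), with 6 of 8 below background on all 6 arrays. Of 7 markers of CD8 T and NK cells 1 passed, Klrd1, which was below background on all 6 arrays, and 0 of 6 stromal and 0 of 2 erythroid markers passed. Apart from the values given here, the part of such cells in the GIMAP values was not tested, and in sorted pools fewer cells of a type and less RNA per cell cannot be told apart.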

How the data were processed

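The 6 arrays measured total RNA of sorted Treg cells, amplified with the Ambion WT Expression Kit, per the labels. The deposited values are linear probe-set intensities for which the submitters' processing notes name RMA and Affymetrix Power Tools, with versions not given in the sources used here. RMA corrects background and summarises the probes of a set, and in its usual form it also quantile-normalizes the arrays between these steps. The deposited columns had medians of 82.0 to 92.0, so they did not share a distribution, and how arrays were normalized together is not given. RNA amplification can change the width of an array's distribution.

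Values were taken to log2 with no pseudocount. Of 24922 probe sets, 21425 name exactly 1 gene in the platform annotation, 1399 several and 2098 none. Of the first, 21347 matched RefSeq by gene ID. For 921 genes with several probe sets the one with the highest mean was used, which left 19752 genes. Between 11126 and 12413 genes per array were above background, and the number of arrays limits the precision.

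Tissues, taken from the titles, were compared with limma 3.58.1 in R 4.3.3 (lmFit and eBayes, two-sided, no covariates, Benjamini-Hochberg adjustment over 19752 genes, threshold 0.05), tested on simulated data. Promoters are from the RefSeq table. The members and lists were chosen with earlier results of these data known. The rule named all members, list genes past the test or with the smallest p, flanking genes and the 5 genes most like the family. Of these, only genes beside a GIMAP result are printed. Alternatives covered the centre, width and quantiles of arrays, dim genes, probe sets, variance, array weights, the replicate number and each array left out.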

Additional observations from a re-analysis of the deposited data

How the results depend on the processing

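The log2 fold change of Gimap7 stayed above 0, and those of Gimap1, Gimap3, Gimap5, Gimap8 and Gimap9 below 0, under all 17 alternatives. The count of GIMAP genes past the test was 0 under all but array weighting. limma's default array weights did not converge and reached 9.497 for pancreas array 2, which left nearly all weight on array 2 of each tissue. They gave 7206 genes and 5 members, with Gimap4 at -0.0107 and Gimap6 at -0.15. Gene-by-gene weights, added after seeing this, gave 1671 genes and 1 member, Gimap7, with Gimap6 at -0.10. Cd4 turned to 0.160 and 0.0928 under these weights. The count of 134 genes was 64 with arrays centred on their medians, 66 with a common width, 212 with quantile normalization, and 3 with values under background raised to it. Without the narrowest array of each tissue it was 347, with Gimap6 at -0.11. With a common width, Foxp3, Cd4 and Ptprc turned to 0.227, 0.147 and 0.0521. With 1 array left out, the count ran between 64, with spleen array 1 dropped, and 262, with pancreas array 3 dropped, GIMAP members past the test stayed at 0, and the family median ran from -0.33 to -0.09. The log2 fold change of Gimap6 ran from -0.12 to 0.25 in these fits, of Foxp3 from -0.220 to 0.0718, of Cd4 from -0.31 to 0.15, of Repin1 from -0.0471 to 0.165, of Bcor from -0.327 to 0.0264, of Atg2b from -0.212 to 0.0527 and of Vps26a from -0.222 to 0.0161. The causes were not tested.

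With the replicate block, 132 genes and 0 GIMAP members passed, and Gimap7 had an adjusted p of 0.963. Same-numbered arrays did not deviate together, with correlations of -0.46, 0.11 and -0.68 for numbers 1 to 3. The highest value, 0.65, was between pancreas array 3 and spleen array 1, the narrowest of their tissues. Array width enters these correlations, so they cannot decide whether same-numbered arrays share an origin, which the labels do not state.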
